A study of Mus musculus with 12 samples.

Results

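Cytosolic ribosomal protein genes, which encode the proteins of the small and the large subunit of the ribosome, were described in the sensory epithelium of the neonatal mouse cochlea. A table entry was taken as a member where its gene symbol followed the ribosomal protein naming pattern (Rps or Rpl with a number, Rplp0 to Rplp2, or Rpsa) and its normalised read count averaged at least 10 over the 11 libraries, so the choice used no difference between groups. Of 27754 distinct entries, 18400 reached that mean and were tested. The symbols of 87 entries followed the pattern, and 85 of them were members: 36 of the small subunit, 46 of the large subunit and 3 of the P stalk of the large subunit. The other two, Rpl3l and Rpl39l, averaged 4.36 and 1.55, whereas Rpl6l, the lowest member, averaged 11.5. Of the members, 80 are annotated as protein coding, and Rpl6l, Rps12l1, Rps3a2, Rps3a3 and Rps4l are not. Each of the 85 passed the filter on low values because the rule held the same minimum.

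The study asked how stabilisation of β-catenin changes the sensory epithelium at an early and a later neonatal age. Pups of mixed C57BL/6 and CD1 strain all carried β-catenin-flox(Exon3)/+, an allele from which Cre removes exon 3 so that the protein escapes degradation. Treated pups also carried Sox2-CreER/+, in which the Sox2 promoter drives a Cre that tamoxifen activates, so that recombination is limited to SOX2-positive cells, and untreated pups had no Cre. Every pup, untreated ones included, was exposed to tamoxifen through the milk of its mother, which was injected on postnatal day 1 (P1 groups, tissue taken at day 4) or day 4 (P4 groups, tissue taken at day 7). Both P1 groups and the P4 untreated group held 3 libraries and the P4 treated group held 2, its replicates 1 and 3, each library coming from the 2 ears of 1 pup. Replicate 2 of P4 treated was not analysed here.

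A ribosome is built from ribosomal RNA and one copy of nearly every ribosomal protein, apart from the acidic proteins of the stalk, so cells make these proteins in matched amounts. Their messenger RNAs are among the most abundant of a cell, and many begin with a run of pyrimidines, the 5′ terminal oligopyrimidine (TOP) tract, through which mTORC1 controls their translation. The genes are also known for their many processed pseudogenes, DNA copies of the spliced messenger RNA that lie elsewhere in the genome and carry nearly the same sequence.

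Ctnnb1 differed by a log2 value of 0.16 between P1 treated and P1 untreated (adjusted p = 0.59), although a count over the whole gene cannot show the loss of exon 3. All 20 hair cell markers and all 18 supporting cell markers of the fixed lists were detected. Xist, which only cells with 2 X chromosomes express in quantity, lay between 13 and 39 in the 3 P1 treated libraries, in P1 untreated replicate 1 and in the 3 P4 untreated libraries, and between 2794 and 4180 in P1 untreated replicates 2 and 3 and in both P4 treated libraries. At P4, treatment and Xist level therefore cannot be told apart, nor can age and Xist level among treated pups. The paper names lowered Sox2 in the Sox2-CreER knock-in as a limitation. Sox2 averaged 5493 in P1 treated and 8778 in P1 untreated, and 7785 in P4 treated and 10350 in P4 untreated. Only treated pups carried this allele, so its effect and that of stabilised β-catenin cannot be told apart. In such bulk libraries, fewer cells of a type and less RNA per cell cannot be told apart either.

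Ribosomal protein genes took up a larger part of the counts at P1 than at P4. The members' share of all normalised counts was 1.31%, 1.31% and 1.45% in P1 untreated and 0.891%, 1.15% and 0.906% in P4 untreated replicates 1 to 3. In P1 treated it was 1.33%, 1.19% and 1.32%, and in P4 treated 0.832% and 0.828%. By the members' share every P1 library thus lay above every P4 library, although P4 untreated replicate 2, at 1.15%, came close to P1 treated replicate 2, at 1.19%. With the members' near-identical copies added, as defined below, P4 untreated replicate 2 was at 1.803% and P1 treated replicate 2 at 1.795%. The P1 and P4 libraries then overlapped. The group values were 1.36% ± 0.082 (SD, n = 3) in P1 untreated, 1.28% ± 0.079 (SD, n = 3) in P1 treated, 0.983% ± 0.146 (SD, n = 3) in P4 untreated and 0.830% ± 0.003 (SD, n = 2) in P4 treated.

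Among untreated pups, 47 of the 85 members were called higher at P1 than at P4 and 0 were called lower. A gene was called where limma's adjusted p, with Benjamini-Hochberg adjustment over all tested genes, was under 0.05 and its log2 difference exceeded 0.32 in either direction, the fold the study used. Of all 18400 genes tested, 10.5% were called higher and 9.38% lower. The median log2 difference of the members, P1 minus P4, was 0.41 (1.33-fold), against 0.02 over all genes, and it was above 0 for 79 members. By subunit, the called members were 23 of the 36 of the small subunit, 24 of the 46 of the large subunit and 0 of the 3 stalk proteins.

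Rps19, a small subunit protein needed for maturation of the small subunit's ribosomal RNA, had normalised counts of 18515, 18825 and 21606 in P1 untreated and 11073, 14306 and 10356 in P4 untreated. The groups did not overlap, and the log2 difference was 0.73 ± 0.12 (SE; adjusted p = 0.00196). Rpl32, a large subunit protein, was higher at P1 by 0.63 ± 0.10 (adjusted p = 0.00185), and Rps20, of the small subunit's head, by 0.62 ± 0.11 (adjusted p = 0.0029). Rps27, a zinc finger protein of the small subunit, was higher by 0.78 ± 0.14 (adjusted p = 0.00345). Rpl14 was higher by 0.64 ± 0.10 (adjusted p = 0.00174), Rpl13 by 0.64 ± 0.11 (adjusted p = 0.00241) and the X-linked Rpl36a by 0.65 ± 0.11 (adjusted p = 0.00326). These 7 and Rpl21 had the smallest p-values among the members.

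The members with the most extreme differences behaved otherwise. Rps3a1, a small subunit protein, had 10344, 10747 and 806 normalised counts in P1 untreated and 376, 630 and 433 in P4 untreated, and in P1 treated it had 10974, 592 and 714. It was thus high in 3 of 6 P1 libraries and low in the other 3, and its log2 difference of 3.25 ± 1.15 did not pass the test (adjusted p = 0.0698). The symbols Rps3a2 and Rps3a3 moved against it. Rps3a2 had 5529, 6547 and 13519 in P1 untreated and 6078, 11385 and 12941 in P1 treated, lower in each of the 3 libraries where Rps3a1 was high, and Rps3a3 ran from 3439 to 8429 in the same order of libraries within each P1 group. Rpl21, a large subunit protein, had 1493, 1609 and 1683 in P1 untreated, 3185, 1533 and 1911 in P1 treated, 264, 235 and 237 in P4 untreated and 248 and 244 in P4 treated, the largest called difference among the members (2.70 ± 0.22, adjusted p = 7.89e-05 in untreated pups).

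A comparison of sequences showed how alike these entries are. The coding sequence of each member was aligned to the transcripts of all entries of the table, and an entry was called a copy where it matched at 95% identity or more over at least 80% of the coding sequence on the same strand. Outside the members there were 378 such copies, of which 363 are annotated as processed pseudogenes and 163 averaged at least 10 normalised counts. A stretch of 75 bases, the length of a read, is shown for both families because the difference between entries lies in the few bases in capitals, which mark every position at which the 3 sequences of a family differ. The first 3 sequences are coding positions 187 to 261 of Rps3a1 (GRCm38 chr3:86141332-86141406, minus strand, within the coding sequence), with the matching stretches of Rps3a2 (chr14:88123548-88123622, minus strand) and Rps3a3 (chr13:108670789-108670863, plus strand). The next 3 are coding positions 394 to 468 of Rpl21 (chr5:146835864-146835938, plus strand), with its copies Gm10163 (chr9:88391230-88391304, plus strand) and BC004004 (chr17:29308531-29308605, plus strand).
Rps3a1: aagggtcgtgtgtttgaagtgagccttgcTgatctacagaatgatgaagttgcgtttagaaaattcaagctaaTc
Rps3a2: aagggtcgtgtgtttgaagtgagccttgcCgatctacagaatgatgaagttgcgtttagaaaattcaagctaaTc
Rps3a3: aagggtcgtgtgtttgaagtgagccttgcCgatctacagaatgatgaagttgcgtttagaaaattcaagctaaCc
Rpl21: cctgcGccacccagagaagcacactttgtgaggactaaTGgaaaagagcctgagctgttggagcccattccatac
Gm10163: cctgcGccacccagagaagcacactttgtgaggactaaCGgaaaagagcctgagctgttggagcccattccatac
BC004004: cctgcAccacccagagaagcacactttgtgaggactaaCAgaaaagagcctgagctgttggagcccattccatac
Rps3a2 differed from Rps3a1 at 1 of the 75 bases and Rps3a3 at 2. Gm10163 differed from Rpl21 at 1 base and BC004004 at 3.

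Stretches that no base distinguishes were common. Of the 718 windows of 75 bases in the Rps3a1 coding sequence, 470 (65.5%) occurred letter for letter in Rps3a2 and 231 (32.2%) in Rps3a3. Gm10163 held 69.5% of the 406 windows of Rpl21 and BC004004 held 44.6%. All 559 windows of Rpl13 occurred in Gm12918, and all 817 windows of Rpl5 in Gm15500, so the counts given to Rpl13 or Rpl5 and to those entries rest on bases outside the coding sequence or on the quantifier's division of shared reads. Over the 85 members, the median share of coding windows found in another entry was 84.1%, with 26 members at 100% and 2 at 0. Over whole transcripts the median was 19.3% for the members and 0.0% for 17974 other genes.

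**Figure D1:**
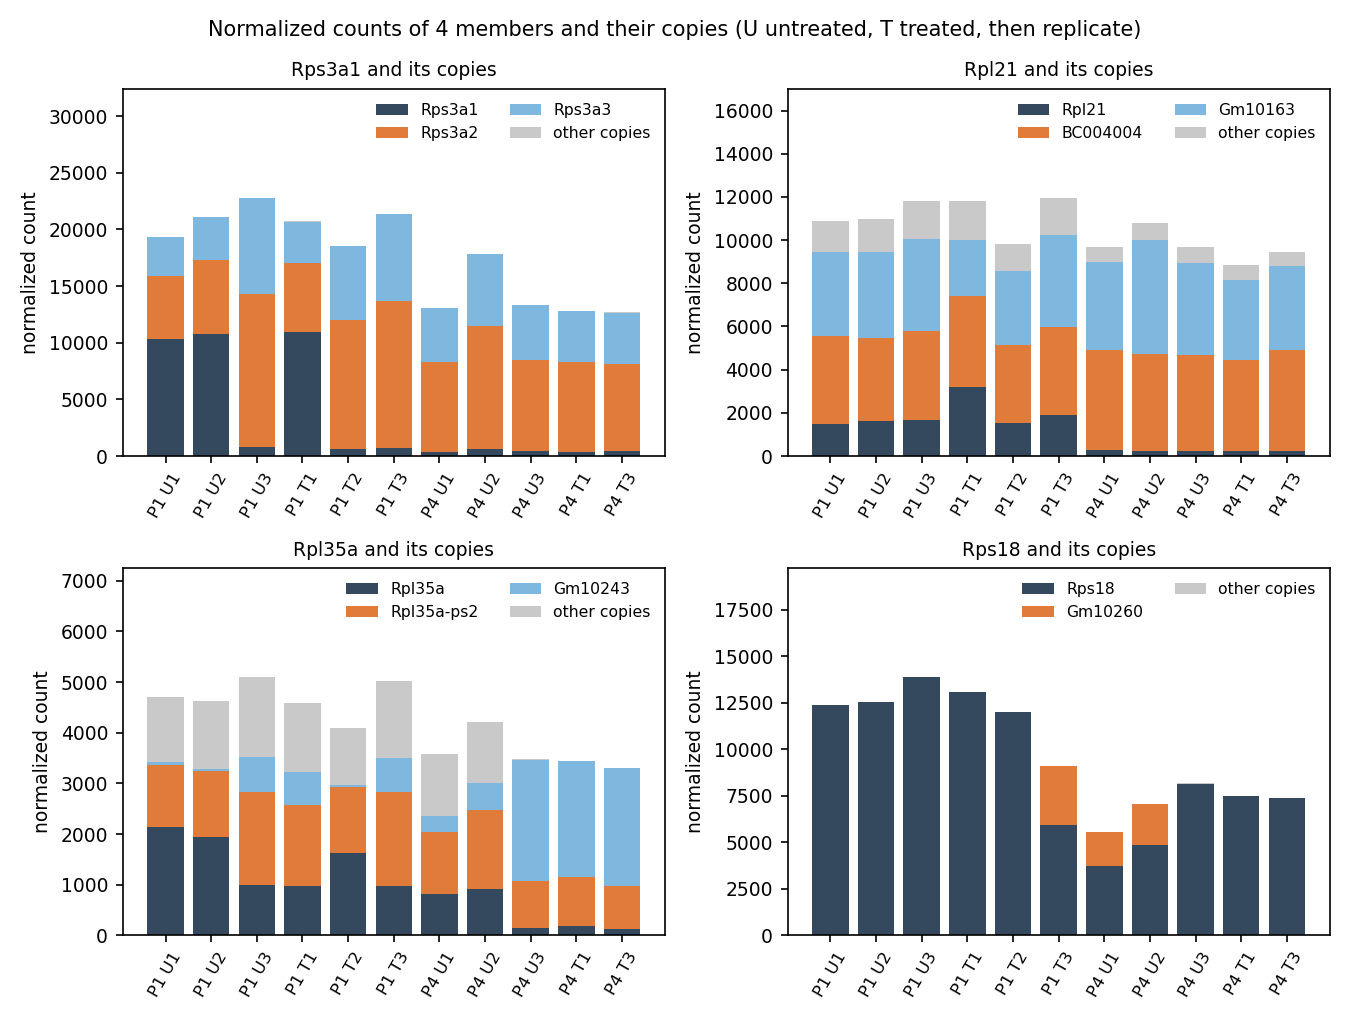
Normalised counts (vertical axis) of Rps3a1, Rpl21, Rpl35a and Rps18 and of their near-identical entries, as stacked bars for each of the 11 libraries (horizontal axis). The height of a bar gives the sum of the whole family. Rps3a1 runs from 343 to 10974 while its family sum stays between 12691 and 22819.

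Copies were therefore summed with their members into 81 families, and the whole table was fitted again, an alternative chosen after the counts had been seen. Of the 81 families, 71 had copies outside the members, which held 33.2% to 37.6% of a library's family counts. The share ran from 0 to 95.4% between families with a median of 21%, and 29 families had over 50% of their counts in copies. The Rps3a1 family, with Rps3a2 and Rps3a3 in it, had sums of 19378, 21124 and 22819 in P1 untreated, 20725, 18568 and 21366 in P1 treated, 13068, 17879 and 13345 in P4 untreated and 12810 and 12691 in P4 treated. The scatter of Rps3a1 was gone from the sum, every P1 library lay above every P4 library, and the difference in untreated pups was 0.53 ± 0.12 (adjusted p = 0.0109).

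The Rpl21 family went the other way. Copies held 89.1% of its counts, of which BC004004 had between 3592 and 4655 and Gm10163 between 2623 and 5305 in a library. Its sums were 10879, 10992 and 11824 in P1 untreated and 9702, 10799 and 9660 in P4 untreated, and the difference of 0.16 ± 0.09 did not pass the test (adjusted p = 0.219). For Rpl35a, another large subunit protein, the entry alone had 2146, 1942 and 998 in P1 untreated against 814, 918 and 152 in P4 untreated. Its copy Gm10243, which holds 70.7% of its 256 windows, had 68, 46 and 686 against 311, 532 and 2401, and the summed family was higher at P1 by 0.36 (adjusted p = 0.0235). Rps18 had 12360, 12518 and 13879 in P1 untreated and 3738, 4857 and 8155 in P4 untreated, where its copy Gm10260 took 1833 and 2211 in replicates 1 and 2 and 0 in replicate 3. Where Rps18 alone gave 1.29 (adjusted p = 0.0157), its family gave 0.92 ± 0.15 (adjusted p = 0.00253), with sums of 12390, 12545 and 13891 in P1 untreated, 5572, 7079 and 8166 in P4 untreated and 7489 and 7361 in P4 treated. At the low end, Rpl3 had 14321, 6258 and 6545 in P1 untreated and 9844, 11689 and 9090 in P4 untreated (-0.28 ± 0.37, adjusted p = 0.635), while its family, with 58.0% of its counts in copies, was higher at P1 by 0.56 (adjusted p = 0.00286).

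**Figure D2:**
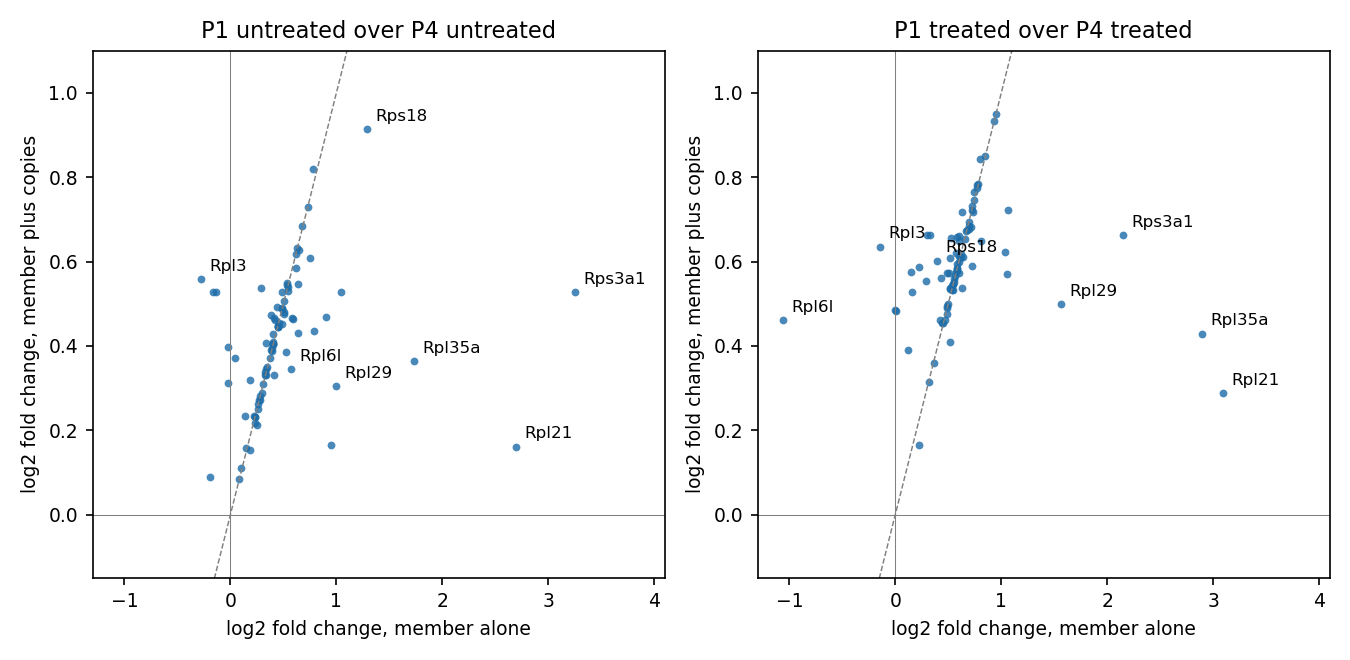
Log2 difference between P1 and P4 for each of the 85 members, of the entry alone (horizontal axis) and of its family with copies summed (vertical axis), in untreated pups on the left and treated pups on the right, with the line marking equal values. The entries alone run from -0.28 to 3.25 in untreated pups and from -1.06 to 3.09 in treated pups, the families from 0.09 to 0.92 and from 0.17 to 0.95.

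Summing narrowed the spread of the set and left its middle in place. In untreated pups the standard deviation over members of the log2 difference was 0.49 for entries alone and 0.16 for families, whose median standard error was 0.11, while the median difference was 0.41 for both. The differences of 19 of 85 members moved by over 0.2 on summing, and those of 9 by over 0.5. Summed, 56 of 81 families were called higher at P1 in untreated pups and 0 lower, against 10.5% of the 18233 rows called higher. All 81 differences were above 0, and 12 of the 95% intervals included 0. Rpl21, Rps2 and Rpl29 were called alone and not summed, and 15 members, among them Rps3a1, Rps6, Rpl11 and Rpl3, were called only in the summed family. In that count Rps3a1, Rps3a2 and Rps3a3 share the same family value, and Rpl6l takes that of the Rpl6 family. Of the 10 families without copies, which the summing left as they were, 7 were called, with a median of 0.45.

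In 66 of 81 families each P1 untreated library lay above each P4 untreated library, which held for 21.8% of all rows. The libraries did not contribute equally. P4 untreated replicate 2 was the highest of its group in 79 of 81 families, P1 untreated replicate 3 of its group in 81, and P1 treated replicate 2 was the lowest of its group in 79. The median log2 deviation of the families from their means over all libraries was 0.16, 0.21 and 0.35 in P1 untreated and -0.28, 0.03 and -0.31 in P4 untreated. For P4 untreated replicate 2 that put 60 of 81 families above their own mean, against 0 in replicate 1 and 1 in replicate 3. Over all genes the median deviation of a library lay between -0.004 and 0.021. Left out, P4 untreated replicate 2 raised the members called from 47 to 62, whereas leaving out P4 untreated replicate 1, P4 untreated replicate 3 or P1 untreated replicate 3 lowered them to 26, 27 and 27.

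P1 untreated replicate 1, whose Xist level was low as in all P4 untreated libraries, lay above each P4 untreated library in 67 of 81 families. Replicates 2 and 3, with high Xist, did so in 71 and 79. P1 untreated was the only group with both low and high Xist. In every comparison the slope of a log2 Xist covariate therefore rests largely on that group. With log2 Xist as a covariate, 14 members and 11 families were called higher at P1 in untreated pups, while the medians were 0.35 for both and 80 of 85 members and 81 of 81 families were above 0. Marker levels of the epithelium also differed with age. Of 20 hair cell markers 7 were called lower and 2 higher at P1 in untreated pups (median -0.37), with summed counts of 50338 to 76826 at P1 and 80762 to 94435 at P4, and of 18 supporting cell markers 8 were called lower and 2 higher (median -0.35), with sums of 511395 to 583068 and 359516 to 470010. Of 15 mesenchyme markers 4 were called higher and 1 lower (median 1.07), with mean log2 levels of 11.50 to 11.73 at P1 and 10.51 to 10.83 at P4 and sums of 158109 to 179835 and 193075 to 211820. None of these markers was at 0 in every library, and the part of cell makeup in the age difference was not tested.

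**Figure D3:**
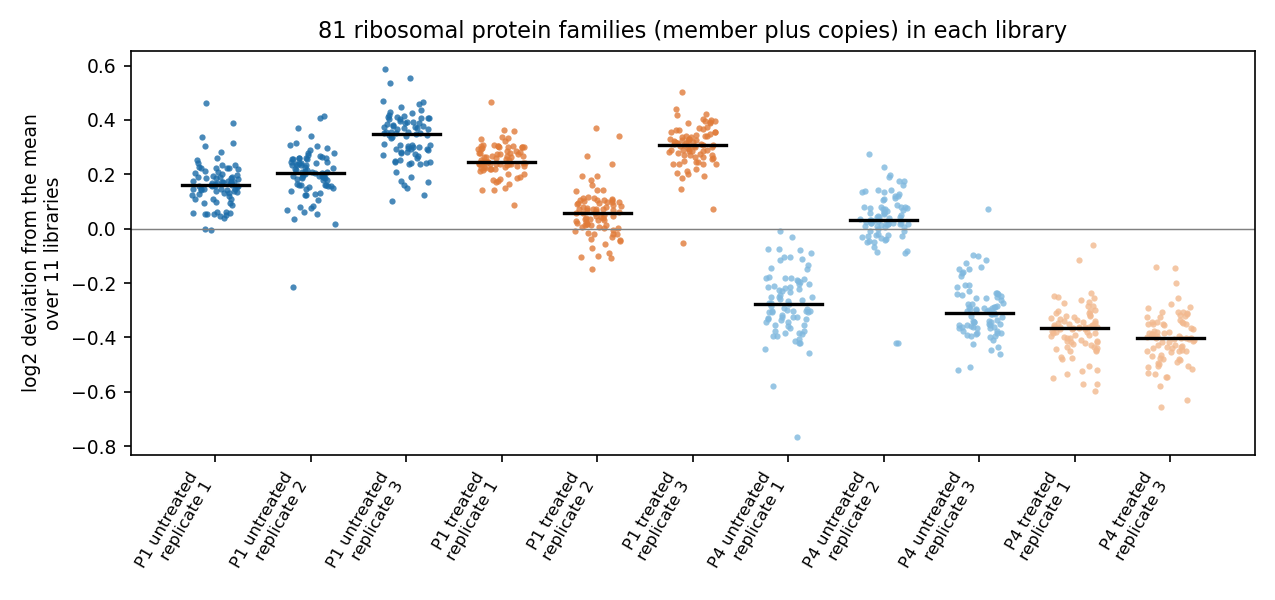
Log2 deviation of each of the 81 families, copies summed, from its mean over the 11 libraries (vertical axis), 1 point per family and library (horizontal axis), with a bar at the median. The medians lie between 0.06 and 0.35 in the 6 P1 libraries, at 0.03 in P4 untreated replicate 2 and between -0.40 and -0.28 in the other P4 libraries.

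Among treated pups the same comparison gave 60 of 85 members called higher at P1 and 0 called lower, against 5.63% and 5.42% of all genes. The median log2 difference was 0.58 (1.49-fold), against 0.005 over all genes, and it was above 0 for 82 members. By role the called members were 26 of the small subunit, 32 of the large subunit and 2 of the stalk. Rps19 had 19128, 17506 and 19532 in P1 treated and 10008 and 9597 in P4 treated, a difference of 0.93 ± 0.13 (adjusted p = 0.00314). Rpl32 was higher at P1 by 0.85 ± 0.11 (adjusted p = 0.00244), and Rpl41, the shortest of the ribosomal proteins, by 0.74 ± 0.10 (adjusted p = 0.00289). Rpl36 gave 0.78, Rpl37a 0.74, Rpl14 0.73 and Rps20 0.77, each called. With log2 Xist as a covariate, whose slope came largely from P1 untreated, 1 member and 0 families were called in treated pups. The medians were 0.71 for both. Without P4 treated replicate 1 or 3 the members called were 13 and 10, with medians of 0.58 and 0.56.

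Summed, 75 of 81 families were called higher at P1 in treated pups and 0 lower, against 5.51% of all rows, with a median of 0.59 (1.50-fold) and a range from 0.17 to 0.95. In 80 of 81 families each P1 treated library lay above both P4 treated libraries, which held for 21.5% of all rows. The age differences of untreated and of treated pups come from different libraries and share none. The spread used to test them was estimated over all 11 libraries together, so the calls of the 2 comparisons are not independent. Leaving out P1 untreated replicate 1, for example, gave 70 families called in treated pups. Of the families, 56 were called in both, 19 in treated pups, 0 in untreated pups and 6 in neither. Those 6 were Rpl21, Rpl24, Rpl31, Rpl7l1, Rps27l and Rps4l. Whether the age difference itself differed between treated and untreated pups was tested with the interaction term given with the treatment comparisons.

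**Figure D4:**
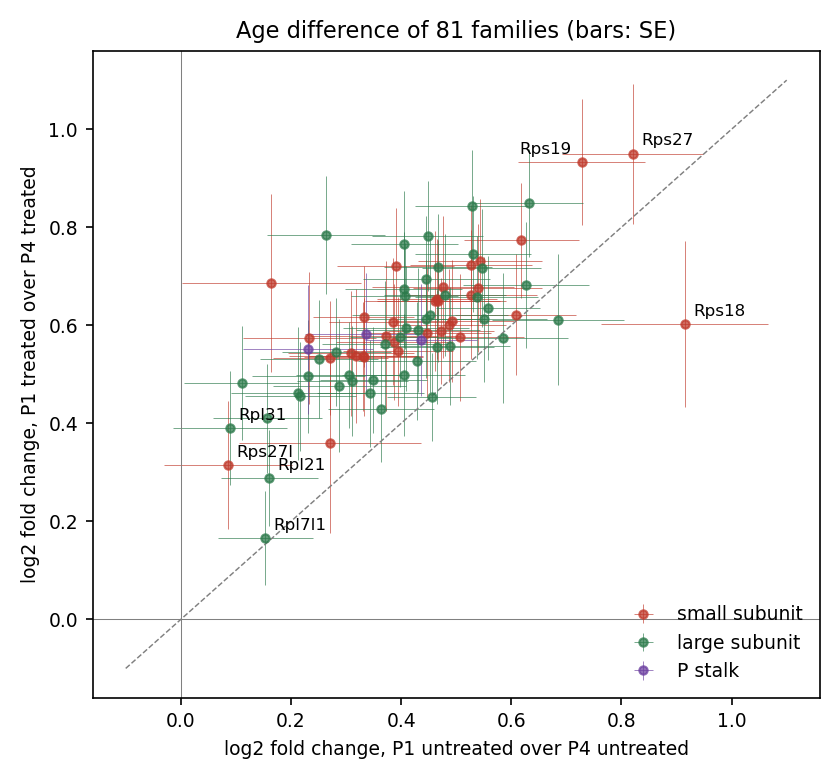
Log2 difference between P1 and P4 of each of the 81 families in untreated pups (horizontal axis) and in treated pups (vertical axis), coloured by role, with lines at 0 and at equal values and bars for the standard error of each family. All 81 points lie above 0 on both axes.

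Families of named roles were taken in turn. The stalk, whose proteins recruit the elongation factors, is made of Rplp0 and the acidic Rplp1 and Rplp2. The Rplp0 family had 26798, 28160 and 30109 normalised counts in P1 untreated, 18805, 24397 and 20001 in P4 untreated, 28563, 24121 and 27134 in P1 treated and 17914 and 17839 in P4 treated. It was higher at P1 by 0.44 in untreated (adjusted p = 0.0134) and by 0.57 in treated pups (adjusted p = 0.0129). The Rplp1 family had 10158, 10644 and 11182 in P1 untreated against 8248, 10706 and 8467, which overlapped, and its difference of 0.23 did not pass the test (adjusted p = 0.189). In treated pups the Rplp1 family had 11184, 9037 and 11742 against 7184 and 7266 and was higher at P1 by 0.55 (adjusted p = 0.0255). Rplp2 gave 0.34 (adjusted p = 0.0552) in untreated pups and 0.58 (adjusted p = 0.0169) in treated pups.

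Rpl5 and Rpl11 form with the 5S ribosomal RNA a particle that binds MDM2 when ribosome assembly is disturbed. Rpl5 alone had 418, 375 and 414 normalised counts in P1 untreated and 425, 402 and 402 in P4 untreated, whereas copies held 95.4% of the counts of its family. The Rpl5 family had 9654, 9951 and 10557 against 8336, 8785 and 7252, with a difference of 0.31 ± 0.10 (adjusted p = 0.0507) in untreated and 0.49 (adjusted p = 0.0228) in treated pups. The Rpl11 family was higher at P1 by 0.43 (adjusted p = 0.0182) and by 0.53 (adjusted p = 0.0214). Copies held 65.8% of the Rpl11 family.

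Rps6, the small subunit protein that S6 kinases phosphorylate, had 89.1% of its family's counts in copies. The family had 15451, 16879 and 17913 in P1 untreated and 11668, 13468 and 11136 in P4 untreated, a difference of 0.47 (adjusted p = 0.00691) where the entry alone gave 0.38 (adjusted p = 0.128). The Rps27a family, whose gene encodes a ubiquitin fused to the ribosomal protein, was higher at P1 by 0.49 (adjusted p = 0.0116) in untreated and 0.61 (adjusted p = 0.0142) in treated pups. The Rpsa family, which encodes the protein also known as the laminin receptor, gave 0.53 (adjusted p = 0.00797) and 0.72 (adjusted p = 0.0069). For the Rpl38 family, known from a mouse mutant with skeletal and hearing defects, the differences were 0.53 (adjusted p = 0.00548) and 0.84 (adjusted p = 0.003).

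The Rps27 family was near the upper end of the set in both comparisons. It had 11028, 11635 and 13115 normalised counts in P1 untreated, 5841, 8520 and 6139 in P4 untreated, 10788, 11276 and 11029 in P1 treated and 5882 and 5540 in P4 treated. No P4 library reached the lowest P1 library. The differences were 0.82 ± 0.13 (adjusted p = 0.00179) in untreated and 0.95 ± 0.14 (adjusted p = 0.00407) in treated pups, and its copy Rps27rt, a retrogene outside the naming rule, held most of the 60.9% of the family counts that were not Rps27. At the lower end, the Rpl31 family, with 92.3% in copies, had 6292, 6393 and 7146 in P1 untreated and 6001, 7059 and 5635 in P4 untreated, a difference of 0.09 (adjusted p = 0.58).

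Several members are paralogues that take the place of another ribosomal protein or act beside it, and were picked out here with their values known. Rpl22l1, the paralogue of Rpl22, had 2914, 2486 and 2991 normalised counts in P1 untreated, 1593, 2105 and 1584 in P4 untreated, 2347, 2239 and 2704 in P1 treated and 1655 and 1505 in P4 treated. It was higher at P1 by 0.68 ± 0.13 (adjusted p = 0.00526) in untreated and 0.62 ± 0.14 (adjusted p = 0.0239) in treated pups. Rpl22 itself gave 0.28 (adjusted p = 0.0666) and 0.55 (adjusted p = 0.0133). Rps27l, a p53-induced paralogue of Rps27, had 3868, 3802 and 3988 in P1 untreated against 3527, 4191 and 3323, and its differences were 0.09 (adjusted p = 0.641) and 0.32 (adjusted p = 0.148). Rpl7l1 gave 0.18 (adjusted p = 0.175) and 0.22 (adjusted p = 0.185), where Rpl7 gave 0.40 (adjusted p = 0.0291) and 0.50 (adjusted p = 0.032). The difference between a paralogue and its partner was not tested.

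The X-linked members Rpl10, Rpl36a, Rpl39 and Rps4x were all called higher at P1 in untreated pups, by 0.62 (adjusted p = 0.00959), 0.65 (adjusted p = 0.00326), 0.49 (adjusted p = 0.0446) and 0.51 (adjusted p = 0.0119). In treated pups Rpl36a and Rps4x were called and Rpl10 (0.49, adjusted p = 0.0641) and Rpl39 (0.58, adjusted p = 0.0534) were not. With chromosomes X and Y left out of the table, 43 of 81 members were called in untreated and 58 in treated pups.

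Treatment was tested next, at each age. At P1, limma called 0 members higher and 0 lower in treated pups, against 0.261% and 0.0924% of all genes, and by unadjusted p under 0.05 there were 0 higher and 1 lower, against 5.18% and 6.99%. The median log2 difference, treated minus untreated, was -0.02 over the members and -0.03 over the families, whose values ran from -0.22 to 0.12. Of the entries alone, Rpl21 (0.40 ± 0.22) and Rpl29 (0.34 ± 0.26) had the highest values and Rpl6l (-2.09 ± 1.49) and Rps3a1 (-1.42 ± 1.15) the lowest. All 81 intervals of the families included 0, and their median bounds were -0.27 and 0.20, folds of 0.829 and 1.15. The sign of the members' median turned with log2 Xist as a covariate (0.05), with weights per library (0.01), without P1 treated replicate 2 (0.05) and without P1 untreated replicate 3 (0.02).

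At P4, limma again called 0 members in either direction, against 0.0326% higher and 0.0217% lower of all genes. By unadjusted p under 0.05 there were 0 higher and 17 lower, against 6.26% and 5.38%. The median difference was -0.20 for members (0.872-fold) and -0.20 for families (0.870-fold), and 80 of 81 families were below 0, all but Rps18. Of the 81 intervals 63 included 0, and the median bounds were -0.49 and 0.07, folds of 0.712 and 1.05. In 54 of 81 families both P4 treated libraries lay below each P4 untreated library, which held for 16.9% of all rows.

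Of the entries alone, Rps18 (0.49 ± 0.35), Rps16 (0.16 ± 0.19) and Rps2 (0.15 ± 0.26) had the highest values at P4, and Rpl35a the lowest (-1.65 ± 0.66, adjusted p = 0.386), with 814, 918 and 152 normalised counts in P4 untreated and 181 and 131 in P4 treated. Rpl13a, a large subunit protein that also takes part in translational silencing in myeloid cells, gave the lowest family value. Its family had 9439, 11533 and 9252 normalised counts in P4 untreated and 7213 and 6994 in P4 treated, with 11636, 11680 and 12810 in P1 untreated and 12890, 10608 and 13373 in P1 treated. The P4 groups did not overlap, but the difference of -0.50 ± 0.12 did not pass the test (adjusted p = 0.25). Rpl41, with 13337, 15866 and 12709 against 10818 and 10921, gave -0.36 (adjusted p = 0.283). Rpl31 gave -0.37 (adjusted p = 0.29) and Rpl35 -0.34 (adjusted p = 0.305).

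One library carried much of that P4 difference. Without P4 untreated replicate 2, the median at P4 was -0.08 over members and -0.09 over families, and 8 families were above 0. With log2 Xist as a covariate the medians were -0.29 and -0.32. Markers of other cell types also differed at P4. Of 15 mesenchyme markers, 13 were lower in P4 treated than in P4 untreated, with a median of -0.74 and 4 at an unadjusted p under 0.05, and none was at 0 in every library. The mean log2 level of that list was 9.60 to 10.16 in P4 treated and 10.51 to 10.83 in P4 untreated, while its summed counts overlapped (196567 to 219858 against 193075 to 211820). Lower values in P4 treated were also found for 11 of 12 markers of neurons and glia (median -0.61), 13 of 13 of macrophages and leukocytes (-0.46) and 5 of 7 of endothelium (-0.76), and no marker of these lists was called. Their summed counts were 29704 to 33516 against 28676 to 42341, 3509 to 5900 against 4409 to 6566, and 1503 to 1658 against 1679 to 5051. At P1, 11 of 15 mesenchyme markers were lower in treated pups (median -0.88), as were 13 of 13 of macrophages and leukocytes (-1.07). Of neurons and glia 6 of 12 were lower there (-0.10) and of endothelium 4 of 7 (-0.165). The ribosomal protein members had a median of -0.02 in that comparison. The part of these cells in the differences of the ribosomal protein genes was not tested.

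**Figure D5:**
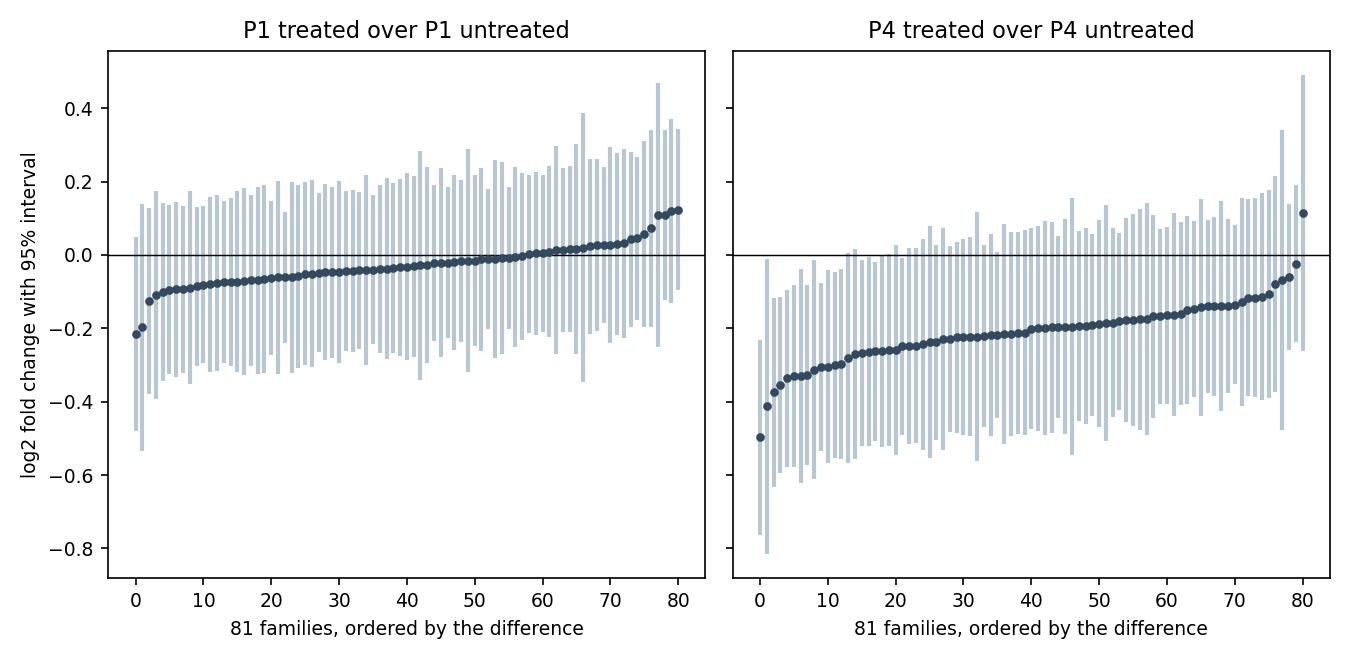
Log2 difference between treated and untreated pups for each of the 81 families in rank order (horizontal axis), at P1 on the left and at P4 on the right, with 95% intervals as bars. All 81 intervals include 0 at P1 and 63 do at P4, where 80 of 81 values lie below 0.

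The interaction, the treatment difference at P1 minus that at P4, equals the age difference in treated pups minus that in untreated pups. Limma called 0 members positive and 0 negative, against 0.0% and 0.0% of all genes, and by unadjusted p under 0.05 there were 4 positive and 0 negative, against 2.72% and 3.08%. The median was 0.18 for members and 0.19 for families, with 77 of 81 families above 0 and 77 of 81 intervals including 0 (median bounds -0.19 and 0.55). Rpl13a had the smallest p among the families (0.52 ± 0.16, adjusted p = 0.819). Without P4 untreated replicate 2 the median interaction was 0.06 over members and 0.07 over families, and with log2 Xist as a covariate it was 0.34 and 0.37, with 0 called. The larger age difference in treated pups thus did not pass a test.

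The start of the transcript was read next, since the TOP tract lies there. RefSeq promoters (GRCm38.p6) matched 60 of the 85 members, and a match was a C within 5 bases of the annotated start followed by pyrimidines without a break, at least 6 bases in all, on the gene's strand only. Of the members 26 of 60 (43.3%) had such a run, against 1613 of 12490 other tested genes (12.9%). Of 14 other genes known for a TOP tract 7 had one (50.0%), as had 4 of 68 ribosome biogenesis factors (5.88%) and 4 of 68 mitochondrial ribosomal protein genes (5.88%). Since annotated starts can miss the true start by some bases, no run in the window is a statement about these letters alone. The 5 starts below show the run in capitals in genes with age differences, and Rps19 a start without one. Each gives 10 bases before the annotated start and 18 from it. They lie at chr9:120571507-120571534 (plus strand) for Rpl14, chr3:90213631-90213658 (minus) for Rps27, chr4:86857350-86857377 (minus) for Rps6, chr9:78481707-78481734 (minus) for Eef1a1, chr1:161035156-161035183 (plus) for Gas5 and chr7:24884582-24884609 (plus) for Rps19.
Rpl14: ggccctCTCTCTTCTCgctgagcgccgc
Rps27: cgctttcgCTCCTTTCCggcggtgacga
Rps6: gaagtcgggCCTCTTTTTCgtgacgcct
Eef1a1: ctccgCCCTCTTCCCgagggtgggggag
Gas5: ccatctcagCCTTTCggagctgtgcggc
Rps19: aatctcgcgagactcgacgcccgacttg
The median age difference was 0.39 for the 26 with a run and 0.41 for the 34 without in untreated pups, and 0.58 for both in treated pups. Of other motifs, CCGGAAG, searched on both strands in the 250 bases before the start, was found in 18 of 60 members (30.0%) and 13.4% of other genes, and CACGTG in 5 of 60 (8.33%) and 9.31%. Neither motif contains the other.

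The rest of the protein synthesis machinery was read from lists fixed beside the members. Counts called higher and lower at P1 are given for untreated and then for treated pups. Of all genes tested, 10.5% were called higher and 9.38% lower in untreated pups, and 5.63% and 5.42% in treated pups. Of 4 ribosomal protein genes outside the naming rule, Rps27rt alone was called, higher by 0.85 in untreated and by 0.95 in treated pups. Its counts were already part of the Rps27 family. Fau gave 0.21 and 0.28, and Rpl36al 0.06 and 0.20. Of 82 ribosome biogenesis factors 25 were higher and 1 lower in untreated pups and 20 higher and 1 lower in treated pups, with medians of 0.25 and 0.28. Dkc1, the pseudouridine synthase of ribosomal RNA, was higher by 1.04 (adjusted p = 0.000151) and by 0.84 (adjusted p = 0.00224). Rrp15 gave 0.96 and 0.85, and Wdr43 gave 0.52 and 0.48.

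Of 14 genes of RNA polymerase I and its factors, which transcribe ribosomal RNA, 6 were higher in untreated and 3 in treated pups and 0 lower, with Polr1b at 0.97 in untreated pups. Translation initiation factors had 6 of 36 higher and 1 lower in each comparison, and elongation factors 5 and 3 of 9 higher and 0 lower. The shares of all genes called higher were 10.5% in untreated and 5.63% in treated pups. Eef1a1, which brings aminoacyl-tRNA to the ribosome and is itself a TOP gene, was higher by 0.54 (adjusted p = 0.00277) and 0.46 (adjusted p = 0.0193). Of the 21 other TOP genes 10 were called higher in each comparison, and 1 lower in untreated and 0 in treated pups, with medians of 0.33 and 0.38. Among them Npm1 gave 0.72 and 0.62. Gas5, a host of small nucleolar RNAs, gave 0.69 (adjusted p = 0.000308) and 0.55 (adjusted p = 0.00422). Snhg20 was the one of 13 such hosts called lower (-1.44 and -1.20), where 3 and 4 were called higher.

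Regulators of the set were read in the same way. Of 23 genes of mTORC1 and TOP regulation 3 were higher and 1 lower in untreated pups, near the 10.5% and 9.38% of all genes, and 0 in treated pups. Mlst8, a subunit of mTORC1, was higher by 0.48 in untreated pups, and Eif4ebp2, a repressor of cap-dependent initiation, was called lower (-0.46, adjusted p = 0.0244). Larp4 (0.42, adjusted p = 0.0129) and Sesn1 were also called higher there. Sesn1 averaged 2070 normalised counts in P1 untreated and 1419 in P4 untreated. Of 13 genes of the MYC and MAX network 1 was higher and 3 lower in untreated pups and 1 higher and 2 lower in treated pups. The shares of all genes were 10.5% and 9.38% in untreated pups and 5.63% and 5.42% in treated pups. Mycn, a transcription factor of the MYC family, was higher at P1 by 0.73 (adjusted p = 0.00593) and 1.14 (adjusted p = 0.00335), and Mxi1, which pairs with MAX as a repressor, was called lower (-1.51, adjusted p = 1.46e-05, and -1.17). Mycl went against Mycn, called lower in untreated pups (-0.70, adjusted p = 0.00309) and not called in treated pups (-0.41, adjusted p = 0.0764). Mlxipl was called lower in both (-0.83, adjusted p = 0.0155, and -0.81, adjusted p = 0.0433).

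Mitochondrial ribosomal proteins build the separate ribosome of that organelle. Of 77 such genes 2 were called higher and 2 lower at P1 in untreated pups and 5 higher and 0 lower in treated pups, with medians of -0.01 and 0.10, where the cytosolic members had 0.41 and 0.58. At P4 they had a median of -0.15 between treated and untreated pups, with 63 of 77 below 0, beside the -0.20 of the cytosolic members. Of the 12 proteins encoded by the mitochondrial genome 3 were called higher at P1 in each comparison and 0 lower. Both lists stand beside 10.5% higher and 9.38% lower of all genes in untreated pups, and 5.63% and 5.42% in treated pups. In the treatment comparisons none of these lists of the protein synthesis machinery had a called gene.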

How the data were processed

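The authors used Cell Recovery Solution to part the sensory epithelium from mesenchyme and neurons. The separation was not complete, as no listed marker of mesenchyme or of neurons and glia was at 0 in every library. RNA was turned into cDNA from 2.5 ng and sequenced as single 75-base reads. The authors aligned to mm10 with Ensembl 75 using STAR 2.5.2b for quality control, estimated transcript abundance with Sailfish, summed it to genes with tximport and normalised with DESeq2. The deposited table of normalised counts, rounded by the authors to whole numbers, is treated here as a score per gene and not as raw counts. By the methods, 1 sample was left out by the authors for insufficient Cre activity, and P4 treated replicate 2 was not analysed here. Estimated abundances divide reads that fit several transcripts, which bears on genes with near-identical copies. Raw depth is not in the table, so no counting interval is given, and the normalised counts of a library summed to 41225626 to 44153992.

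Of 27755 entries 1 repeated identifier was left out and 626 had no symbol. Entries with a mean of at least 10 were fitted with limma 3.58.1 in R 4.3.3 on log2(normalised count + 1), with 4 group means, a mean-variance trend and Benjamini-Hochberg adjustment over all 18400. Log2 fold changes are on that scale, with standard errors or 95% intervals of the model. Called genes had an adjusted p under 0.05 and an absolute log2 difference over 0.32. Copies were found with blastn 2.17.0 against GENCODE M21 transcripts of the table's genes (27066 identifiers matched, 97.52%), with alignments of at least 75 bases, and the summed table of 18233 rows was fitted the same way. The fits were tested on simulated data.

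The members, gene lists, roles and named-gene rule were chosen with earlier results of these data known. By that rule the text named the 8 members with the smallest p in each age comparison and the 3 highest and lowest differences of each comparison, beside fixed roles, with values shown for those a result turned on. Whether replicate numbers pair libraries was checked from the data, as the labels name no shared litter or day. Residual correlations of same-numbered P1 and P4 untreated libraries were 0.135, 0.136 and 0.115, and those of the other comparisons lay between -0.06 and 0.03. Differently numbered libraries were not compared, so these values cannot show whether the numbers pair libraries. Each library is 1 pup, and litters are not given. Alternatives were other pseudocounts, filters, scalings, models, a replicate block, log2 Xist as a covariate, no sex chromosomes, library weights and leaving out each library. Summing copies was added after the data were seen. All libraries were sequenced in 1 lane. One gene of a fixed list is not reported here.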

Additional observations from a re-analysis of the deposited data

How the results depend on the processing

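Every alternative kept the median age difference of the set above 0, and 0 members were called lower at P1 under any of them. With log2 Xist as a covariate the members called higher at P1 fell to 14 in untreated and 1 in treated pups, and the families to 11 and 0, while the medians were 0.35 in untreated and 0.71 in treated pups. The Xist level cannot be told apart from age in treated pups, and the slope of the covariate rests largely on the P1 untreated libraries. A replicate block treats same-numbered libraries as pairs, for which the labels give nothing but the number. Under it 39 members and 45 families were called in untreated pups, and 36 members and 47 families in treated pups. Leaving out one library gave 26 to 62 members and 29 to 71 families in untreated pups, and 10 to 64 members and 9 to 77 families in treated pups, and 0 in the treatment comparisons and the interaction. Without the trend in the variance 35 and 47 members were called, with only the groups compared in the fit 40 and 42, and with the other pseudocount, filters, scalings and library weights 44 to 56 and 55 to 65. With copies summed the sign turned for all 6 members below 0 in untreated pups, to 0.56 for Rpl3, 0.53 for Rps3a2 and Rps3a3, 0.40 for Rpl15, 0.31 for Rpl5 and 0.09 for Rpl31, and for all 3 in treated pups, to 0.64 for Rpl3, 0.49 for Rpl5 and 0.46 for Rpl6l. Rps3a2 and Rps3a3 take here the value of the Rps3a1 family and Rpl6l that of the Rpl6 family, so their turns follow from the grouping. The share of the members in P4 treated was 0.842% with mitochondrially encoded genes left out of the total, against 0.830%. Of the values of named members under the alternatives, 592 kept their side of the threshold, 15 lost the call, 10 gained one and 5 turned sign into a call. The first count includes sign turns without a call, such as Rpl31. P4 treated held 2 libraries, so its spread rests largely on the other groups.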

Other observations

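Copies of one family can carry identical values. Rpl35a-ps3, Rpl35a-ps4 and Rpl35a-ps6 had the same normalised counts in all 11 libraries, 448, 375 and 499 in P1 treated, 423, 443 and 523 in P1 untreated, 0 and 0 in P4 treated and 405, 397 and 0 in P4 untreated, and their transcripts share 100% of their windows of 75 bases. Rpl14-ps1, a copy of Rpl14, had 204, 237 and 165 in P1 treated, 183, 166 and 167 in P1 untreated, 101 and 1677 in P4 treated and 1895, 2369 and 180 in P4 untreated. In both cases libraries of one group fell on either side of a large gap. The Rpl14 entry alone gave 0.64 between P1 and P4 in untreated pups and the Rpl14 family 0.43 (adjusted p = 0.022). Whether reads came from the gene or from its copies was not tested, since no reads were used.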
